A study of Mus musculus with 18 samples.

Results

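This comparison set breast cancer cells carrying a functional integrin β3 against the same parental cells carrying a signalling-deficient integrin β3, both in the microtubule drug docetaxel. The samples were chosen by their labels, which put 6 of the 18 RNA libraries of the study in these groups, 3 in each. All cells were PyMT-BO1, a mouse breast cancer line of luminal B-like type on a C57BL/6 background, with the endogenous integrin β3 knocked out. In the hβ3 docetaxel group the knockout cells had received functional human integrin β3 by retrovirus, and in the Δβ3 docetaxel group they had received a signalling-deficient mutant by the same route. The mutation in Δβ3, and the species of its sequence, are not given here. Both groups were kept for 24 h in 10 nM docetaxel, on plastic 6-well plates in serum-containing medium. The hβ3 DMSO and Δβ3 DMSO groups received vehicle for 24 h, and the pMx docetaxel and pMx DMSO groups carried the empty retroviral vector, with 3 cultures in each group. Each construct is represented by 1 line grown in triplicate, so p-values reflect how far the cultures of a line differ, and anything else that separates the lines cannot be told apart from the construct.

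Integrin β3 pairs with the αv subunit to form a receptor for matrix proteins that carry an RGD motif, such as vitronectin, fibronectin, osteopontin and thrombospondins. Its short cytoplasmic tail binds talin and kindlins and recruits Src-family kinases, which couples adhesion to the actin cytoskeleton, to MAP kinase signalling and to the activation of latent TGFβ by αv integrins. Docetaxel stabilises microtubules and blocks cells in mitosis.

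The libraries were not of equal quality. Total counts were 12338787 to 13853547 in the hβ3 docetaxel group and 8597870 to 14681161 in the Δβ3 docetaxel group, within 7972612 to 18961392 over all 18 libraries. Of 25 heart muscle markers, 16 to 19 had counts in each of the 6 libraries, and Tnnt2, Mb, Nppb, Myl7 and Sln had none in any of them. Their summed level, in counts per 1000000 of the scaled library size (CPM), was 192.7 to 784.4 in the hβ3 cultures, against 323.7, 50120 and 459.3 in Δβ3 cultures 1, 2 and 3. In Δβ3 culture 2 these markers took 4.91% of the counts outside the ribosomal RNA gene Rn45s. The same library had the highest summed levels of the fibroblast list (953.7 CPM, against 13.1 to 39.8 in the other 5 libraries), the endothelial list (1145 CPM, against 10.8 to 24.6), the leukocyte list (234.3 CPM, against 50.6 to 62.6), the basal epithelial list (154.0 CPM, against 1.43 to 2.78) and the red blood cell list (179.3 CPM, against 0.875 to 3.20), and the lowest of the luminal epithelial list (1191 CPM, against 2234 to 3237). The luminal total came mostly from Krt8 and Krt18. Epcam, Pgr, Gata3, Elf5, Cldn3 and Cldn7, which also mark luminal cells, had 0 counts in all 6 libraries. So did Krt14 and Trp63 of the basal epithelial list, culture 2 included. The skeletal muscle list summed to 7.65 to 8.12 CPM in the hβ3 cultures and to 14.5 to 16.5 CPM in the Δβ3 cultures. Counts of calls are therefore given with all 18 libraries in the fit and again without Δβ3 docetaxel culture 2, which leaves 17. Both fits keep Δβ3 DMSO culture 1, which also held heart muscle RNA. Its heart markers summed to 6002 CPM, against 471.8 and 517.1 CPM in Δβ3 DMSO cultures 2 and 3. Rn45s took 41.5% of its counts, against 9.59% and 10.0% in those cultures. It took 27.5%, 10.9% and 33.0% in hβ3 DMSO cultures 1, 2 and 3. In docetaxel it took 15.8%, 11.1% and 19.2% in hβ3 cultures, against 7.82%, 23.6% and 6.92% in Δβ3 cultures. The part of Rn45s in the differences was not tested beyond scaling without it and the heart markers. Δβ3 DMSO culture 1 enters every DMSO comparison below, and some counts are also given without it.

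In docetaxel, hβ3 cells had less RNA than Δβ3 cells for some secreted matrix and TGFβ family genes, immediate-early transcription factors and interferon-stimulated genes. The hβ3 cells had more RNA for Wnt7a, Tgfa, S100a7a, some actin-associated genes and enzymes of amino acid supply. With all 18 libraries, 1223 of 12145 tested genes (10.1%) were called at an adjusted p under 0.05, of which 532 (4.38%) were higher and 691 (5.69%) lower in hβ3 cells. Without Δβ3 culture 2, 1294 of 12437 genes (10.4%) were called, with 563 (4.53%) higher and 731 (5.88%) lower. The 2 fits shared 873 calls, 414 higher and 459 lower in hβ3 cells, and none of the shared calls differed in sign. The median log2 difference over all tested genes was -0.07 with 18 libraries and 0.01 with 17. Another 350 genes were called only with culture 2 in the fit, 232 of them lower in hβ3 cells. Over all 350, culture 2 was the highest of the 6 libraries in 232. Genes called only with that library are selected in part for its being high, so this count is no separate evidence. Among the 459 genes lower in both fits, culture 2 was the highest for 174. Such a share was not counted over all tested genes. The part of the heart-derived RNA of culture 2 in those differences was not tested beyond the fit without the library.

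The largest increases in hβ3 cells included a WNT ligand, an EGF receptor ligand and receptors known from lymphocytes. Wnt7a, which encodes a secreted WNT ligand (chromosome 6, 91363981 to 91411363, minus strand, mm10), had 76.4, 76.8 and 80.7 CPM in hβ3 cultures, against 0.499, 13.8 and 0.359 CPM in Δβ3 cultures 1, 2 and 3. The groups did not overlap, and culture 2 stood far above the other Δβ3 cultures. The log2 difference was 4.13 ± 1.02 (SE, adjusted p = 0.0225) with 18 libraries and 7.44 ± 0.52 (adjusted p = 7.85e-08) without culture 2. The 18-library call was lost on leaving out any 1 of the 3 hβ3 cultures, with adjusted p of 0.0565 to 0.0607.

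Tgfa, which encodes the EGF receptor ligand TGFα (chromosome 6, 86195223 to 86275719, plus strand), had 35.1, 34.6 and 33.6 CPM in hβ3 cultures, against 2.81, 10.1 and 2.24 CPM in Δβ3 cultures. The log2 difference was 2.82 ± 0.47 (adjusted p = 0.000923) and 3.76 (adjusted p = 2.38e-07) without culture 2. S100a7a, a member of the S100 family of calcium-binding proteins (chromosome 3, 90654017 to 90658669, plus strand), had 24.6, 29.5 and 25.5 CPM in hβ3 cultures, against 1.81, 5.91 and 2.51 CPM in Δβ3 cultures, a log2 difference of 3.01 ± 0.34 (adjusted p = 2.49e-05) that was 3.63 without culture 2. In both genes the hβ3 cultures lay close together and well above every Δβ3 culture, of which culture 2 was the highest. Siglecg, a sialic acid-binding inhibitory receptor studied mainly on B cells, had 49.9, 47.7 and 46.3 CPM in hβ3 cultures, against 3.31, 12.4 and 2.69 CPM in Δβ3 cultures (log2 3.02 ± 0.41, adjusted p = 0.000152, and 3.99 without culture 2). Tigit, an inhibitory receptor known from T cells, had 59.5, 47.5 and 55.8 CPM in hβ3 cultures, against 7.23, 17.9 and 6.45 CPM in Δβ3 cultures (log2 2.39, and 2.98 without culture 2). Of the 11 leukocyte and macrophage markers, 5 to 7 had counts in each of the 6 libraries, and Ptprc, Adgre1 and Cd3e had 0 counts in all 6. Their summed levels are given above, and their part in these differences was not tested.

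Other genes of this set were low in both groups but far apart. Slc25a48, a mitochondrial carrier gene, had 6.92, 5.06 and 6.31 CPM in hβ3 cultures, against 0.125, 0.777 and 0.0896 CPM in Δβ3 cultures (log2 4.47 ± 0.73, adjusted p = 0.000756, and 5.68 without culture 2). Msln, which encodes the surface glycoprotein mesothelin, had 4.45, 6.41 and 4.54 CPM in hβ3 cultures, against 0.374, 0.155 and 0.0896 CPM in Δβ3 cultures (log2 4.45). Cldn1, a tight junction protein, had 17.2, 13.8 and 14.6 CPM in hβ3 cultures, against 1.81, 3.26 and 1.97 CPM in Δβ3 cultures (log2 2.72). Selp, the adhesion receptor P-selectin, differed by 2.48 on the log2 scale. Aldh1a7, Dlk2, Mettl7b, 9930111J21Rik1 and Acpp completed the 14 largest increases, with log2 differences of 2.61 to 3.31, and in all 14 the ranges of the groups did not overlap, which was a condition of naming them. Over all tested genes the ranges did not overlap in 29.2%, with hβ3 higher in 16.5% and lower in 12.7%.

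**Figure D1:**
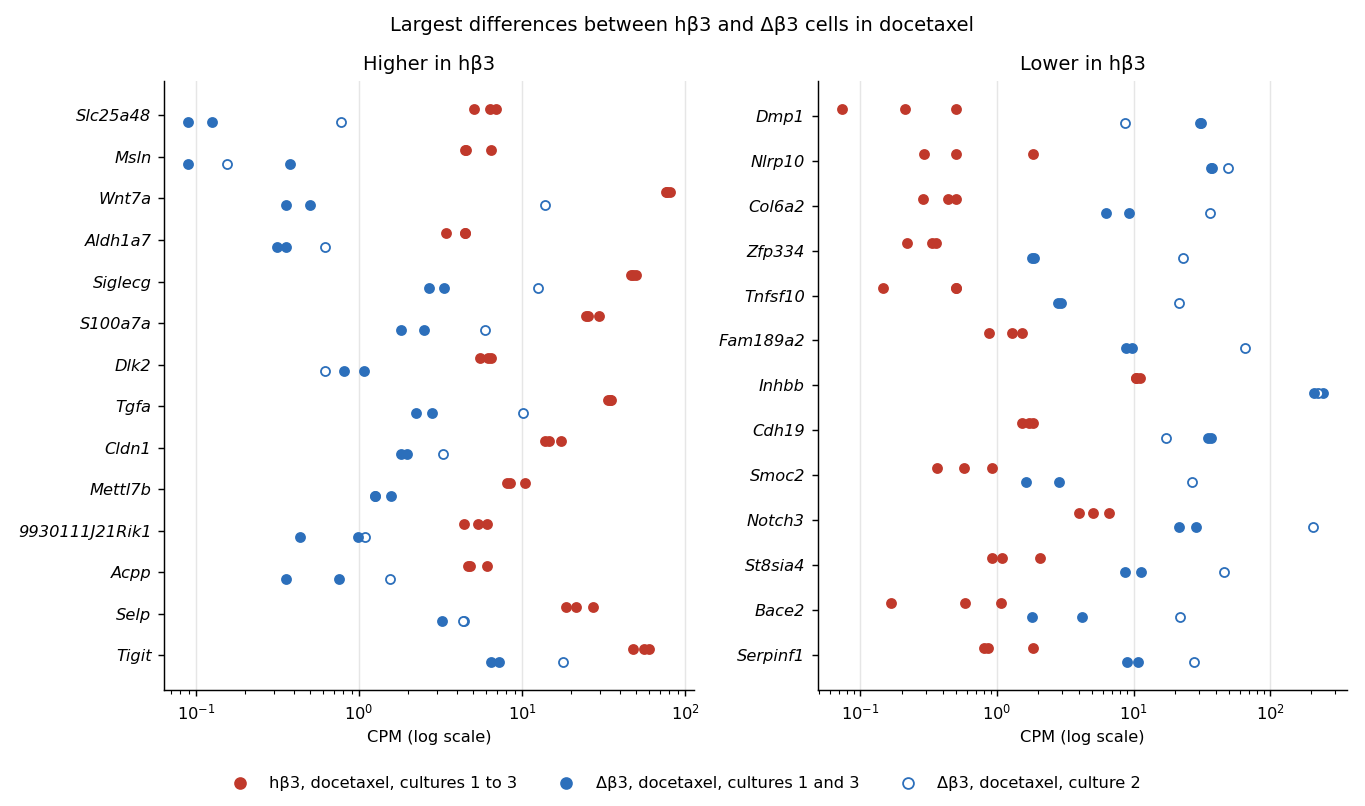
CPM on a log scale of the 14 genes with the largest increase (left) and of genes among the 14 with the largest decrease (right) in hβ3 against Δβ3 cells in docetaxel. Red points are the 3 hβ3 cultures, filled blue points Δβ3 cultures 1 and 3, and open blue points Δβ3 culture 2. For Wnt7a the open point lies at 13.8 CPM, between the hβ3 cultures at 76.4 to 80.7 CPM and the other Δβ3 cultures under 1 CPM, and for Notch3 the open point, at 206.4 CPM, is the highest of the 6.

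The largest decreases in hβ3 cells included Inhbb. It encodes the βB subunit of activins, secreted ligands of the TGFβ family (chromosome 1, 119415465 to 119422248, minus strand). It had 10.4, 10.4 and 11.1 CPM in hβ3 cultures, against 245.5, 225.0 and 211.3 CPM in Δβ3 cultures, a log2 difference of -4.42 ± 0.31 (adjusted p = 1.63e-07) that was -4.43 without culture 2. The 3 Δβ3 cultures, culture 2 included, lay close together, 21.4-fold above the hβ3 cultures in the 18-library fit. Dmp1, an acidic phosphoprotein of bone and dentin matrix that carries an RGD motif (chromosome 5, 104202613 to 104214102, plus strand), had 0.0729, 0.214 and 0.505 CPM in hβ3 cultures, against 30.7, 8.70 and 31.3 CPM in Δβ3 cultures (log2 -6.48 ± 0.57, adjusted p = 1.43e-06). Here culture 2 was the lowest Δβ3 culture, and the difference without it was -6.88.

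Nlrp10, a member of the NOD-like receptor family, had 0.292, 0.499 and 1.85 CPM in hβ3 cultures, against 36.8, 49.0 and 37.4 CPM in Δβ3 cultures (log2 -5.56). Cdh19, a type II cadherin, had 1.82, 1.71 and 1.51 CPM in hβ3 cultures, against 35.2, 17.4 and 36.8 CPM in Δβ3 cultures (log2 -4.14). In both genes culture 2 stood, like the other Δβ3 cultures, far above every hβ3 culture.

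In a second set of decreases, culture 2 was the highest library by a wide margin. Notch3, a Notch receptor prominent in vascular smooth muscle, had 4.01, 5.06 and 6.56 CPM in hβ3 cultures, against 28.6, 206.4 and 21.7 CPM in Δβ3 cultures. Its log2 difference was -4.03 (adjusted p = 0.00963) with culture 2 and -2.27 (adjusted p = 0.0151) without it. Zfp334 (-4.81 and -2.57), Tnfsf10 (-4.52 and -2.89), Fam189a2 (-4.49 and -2.92), Smoc2 (-4.03 and -1.84) and Bace2 (-3.87 and -2.27) likewise moved by more than 1.5 times, each staying called and lower in hβ3 cells. Leaving out 1 hβ3 culture ended the 18-library call of Zfp334 (any of the 3, adjusted p up to 0.0663), Smoc2 and Notch3 (culture 1 or 2, adjusted p up to 0.0633 and 0.0561) and Tnfsf10 (culture 1, adjusted p = 0.05). Col6a2, St8sia4 and Serpinf1 were also among the largest decreases, at -5.36, -3.99 and -3.75 with culture 2 and -4.23, -2.84 and -3.09 without it.

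The receptor itself was read at similar levels in both rescued lines. Itgb3 (chromosome 11, 104608000 to 104670476, plus strand) had 119.0, 103.3 and 99.97 CPM in hβ3 cultures, against 113.5, 32.9 and 107.6 CPM in Δβ3 cultures and 0.635, 0.841 and 0.422 CPM in pMx cultures in docetaxel. Only culture 2 fell outside the range of the other rescued cultures. The hβ3 minus Δβ3 difference was 0.34 ± 0.41 (adjusted p = 0.628) with culture 2 and -0.04 ± 0.29 (adjusted p = 0.969) without it, so its sign turned, and neither passed. The hβ3 construct is a human sequence counted on the mouse gene, so these levels are no measure of the amount of receptor. Itgav, the αv partner, had 691.3, 685.1 and 641.3 CPM in hβ3 cultures, against 636.8, 326.3 and 576.1 CPM in Δβ3 cultures (log2 0.39 ± 0.21, adjusted p = 0.222). Itgb1, the common β1 subunit, did not pass either (0.12 ± 0.22, adjusted p = 0.749). Itgb5 had 0 counts and Itga5 a few in each group, which does not show them to be silent, because the abundant chaperone gene Canx also had 0 counts in every library.

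Of 14 tested integrin subunits, edgeR gave 3 in each direction at an unadjusted p under 0.05 with 18 libraries. DESeq2 called 1 higher and 2 lower. At an adjusted p under 0.05 edgeR called 0 higher and 1 lower (of all genes, 4.38% and 5.69%). The 1 was Itga6, the laminin-binding α6 subunit, which had 1.24, 1.85 and 2.44 CPM in hβ3 cultures, against 3.80, 4.20 and 4.48 CPM in Δβ3 cultures (log2 -1.17 ± 0.35, adjusted p = 0.0407). Its call was lost on leaving out any 1 hβ3 culture or Δβ3 culture 3 (adjusted p 0.0504 to 0.182). Without culture 2 there were 2 higher (Itga3, Itga7) and 3 lower (Itgb8, Itga2, Itga6) of 15 (of all genes, 4.53% and 5.88%). Among 29 tested focal adhesion and integrin signalling genes, 1 was higher and 2 were lower in both fits, a share near that of all genes. Tns3, a tensin that links integrin tails to actin, had 103.9, 99.8 and 98.0 CPM in hβ3 cultures, against 38.5, 40.1 and 43.5 CPM in Δβ3 cultures (log2 1.30 ± 0.14, adjusted p = 8.05e-06). Every hβ3 culture lay far above every Δβ3 culture. Dock1, a guanine nucleotide exchange factor for RAC, differed by -0.66 ± 0.14 (adjusted p = 0.00553), and Fermt2, which encodes kindlin-2, differed by -0.86 (adjusted p = 0.00921) and by -0.47 (adjusted p = 0.00771) without culture 2, which had 271.3 CPM against 139.3 in both other Δβ3 cultures.

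Among genes of matrix proteins that αvβ3 and other integrins bind, more were called lower than higher in hβ3 cells. Of 26 tested, 2 were higher and 10 lower with 18 libraries (of all genes, 4.38% and 5.69%). The counts were 4 higher and 9 lower without culture 2. The median log2 difference was -1.18 with 18 libraries but -0.17 with 17, and the number called lower with 18 was 5 on leaving out any 1 hβ3 culture, 16 without Δβ3 culture 1 and 13 without Δβ3 culture 3. The summed fibroblast markers were highest in culture 2, as given above. Col3a1, called lower only with 18 libraries, is on both lists. The part of fibroblast RNA in these counts was not tested. Thbs2, which encodes the RGD-carrying matricellular protein thrombospondin-2 (chromosome 17, 14665500 to 14694235, minus strand), had 928.6, 893.1 and 911.7 CPM in hβ3 cultures, against 5433, 1304 and 4806 CPM in Δβ3 cultures (log2 -2.08 ± 0.34, adjusted p = 0.00089, and -2.49 without culture 2). The hβ3 cultures were nearly equal, and culture 2 was the lowest Δβ3 culture. Col6a1, a chain of the microfibrillar collagen VI, had 29.6, 32.1 and 36.7 CPM in hβ3 cultures, against 368.3, 527.6 and 328.0 CPM in Δβ3 cultures (log2 -3.64 ± 0.26, adjusted p = 2.03e-07). The collagen VI α2 chain gene Col6a2, described above, was lower as well. Fn1, which encodes fibronectin, had 16.2, 10.97 and 11.6 CPM in hβ3 cultures, against 31.5, 32.9 and 37.6 CPM in Δβ3 cultures (log2 -1.40 ± 0.29, adjusted p = 0.00445). Nov, a secreted CCN family protein, differed by -1.47 ± 0.24 (adjusted p = 0.000792).

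Secreted proteases and their inhibitors moved in both directions. Of 21 tested, 2 were higher and 5 lower with 18 libraries (of all genes, 4.38% and 5.69%), and 3 and 6 without culture 2. Mmp3, the matrix protease stromelysin-1, had 6.27, 5.34 and 5.47 CPM in hβ3 cultures, against 79.6, 27.4 and 75.6 CPM in Δβ3 cultures (log2 -3.42 ± 0.32, adjusted p = 2.32e-06). Plat, which encodes tissue plasminogen activator, had 9.04, 8.34 and 9.50 CPM in hβ3 cultures, against 37.4, 35.9 and 35.4 CPM in Δβ3 cultures (log2 -2.01 ± 0.15, adjusted p = 2.03e-07). Serpine2, the protease nexin that inhibits plasminogen activators and thrombin, had 5.76, 4.85 and 5.72 CPM in hβ3 cultures, against 66.8, 32.9 and 56.1 CPM in Δβ3 cultures (log2 -3.26). In none of these genes did the groups overlap. F2rl1, the protease-activated receptor PAR2, was higher in hβ3 cells, by 0.68 ± 0.13 (adjusted p = 0.00235). Timp3, a matrix-bound metalloproteinase inhibitor, differed by -3.53 and, without culture 2, by -2.52.

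Most called ligands and modulators of the TGFβ family were lower in hβ3 cells. Of 17 tested genes, 1 was higher and 8 lower with 18 libraries (of all genes, 4.38% and 5.69%). The counts were 1 and 7 without culture 2, with medians of -0.62 and -0.56 in the 2 fits. Leaving out any 1 of the 6 libraries gave 6 to 8 lower and 1 higher. Beside Inhbb, Bmp2 had 19.5, 23.4 and 21.4 CPM in hβ3 cultures, against 179.3, 57.8 and 161.5 CPM in Δβ3 cultures (log2 -2.63 ± 0.30, adjusted p = 2.5e-05). It encodes a bone morphogenetic protein. Tgfb1 had 13.1, 10.6 and 12.3 CPM in hβ3 cultures, against 42.8, 25.5 and 39.3 CPM in Δβ3 cultures (log2 -1.58 ± 0.21, adjusted p = 9.76e-05), and Tgfb3 differed by -0.85 ± 0.16. Among proteins that hold or decoy these ligands, Ltbp1, the latent TGFβ-binding protein, differed by -1.59 ± 0.26 (adjusted p = 0.000694). Bambi, a decoy receptor, had 5.39, 5.63 and 5.89 CPM in hβ3 cultures, against 29.2, 44.6 and 24.2 CPM in Δβ3 cultures (log2 -2.53 ± 0.25, adjusted p = 5.19e-06). Smad7, the feedback inhibitor, did not pass (0.05 ± 0.14, adjusted p = 0.847).

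**Figure D2:**
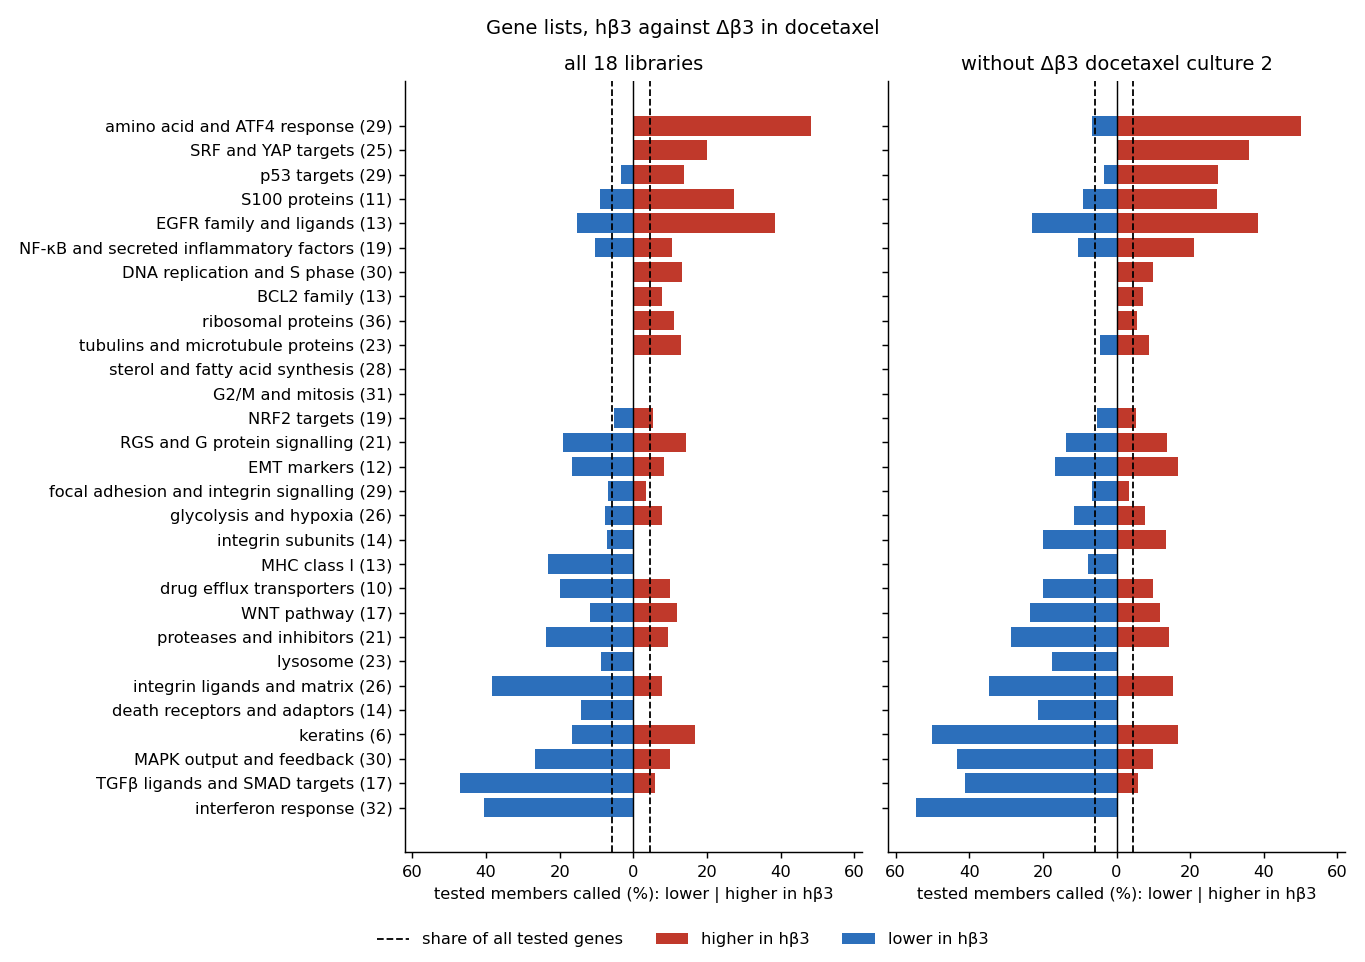
Share of each list's tested members that were called higher (red, to the right) or lower (blue, to the left) in hβ3 than in Δβ3 cells in docetaxel, with all 18 libraries (left) and without Δβ3 culture 2 (right). Dashed lines mark the shares over all tested genes (4.38% higher and 5.69% lower with 18 libraries), and the number tested with 18 libraries stands beside each name. The interferon list is at the far end of the lower calls and the amino acid and ATF4 list at the far end of the higher calls in the right panel.

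Most called immediate-early and feedback genes of MAP kinase signalling were lower in hβ3 cells. Of 30 tested, 3 were higher and 8 lower with 18 libraries (of all genes, 4.38% and 5.69%), and 3 and 13 without culture 2. The number lower with 18 libraries was 4 on leaving out any 1 hβ3 culture, and 6 and 5 without Δβ3 cultures 1 and 3. Without culture 2 it was 7 and 8 on also leaving out Δβ3 culture 1 or 3. Fos, a component of the transcription factor AP-1 (chromosome 12, 85473890 to 85477273, plus strand), had 1.39, 2.14 and 1.35 CPM in hβ3 cultures, against 16.7, 13.1 and 25.9 CPM in Δβ3 cultures (log2 -3.51 ± 0.40, adjusted p = 2.5e-05). Egr1, a zinc finger immediate-early factor, had 26.6, 26.7 and 25.4 CPM in hβ3 cultures, against 207.0, 50.5 and 255.1 CPM in Δβ3 cultures (log2 -2.71 ± 0.40, adjusted p = 0.000475). Dusp2, a phosphatase of MAP kinases, had 6.85, 7.34 and 6.22 CPM in hβ3 cultures, against 47.1, 40.4 and 54.8 CPM in Δβ3 cultures (log2 -2.80 ± 0.24, adjusted p = 9.87e-07). In all of these the hβ3 cultures were tightly grouped below every Δβ3 culture. The feedback genes Dusp6 (-0.83, adjusted p = 1.64e-05), Spry4 (-0.57, adjusted p = 0.00495) and Etv4 (-0.88, adjusted p = 0.0398) were lower only without culture 2; with it their adjusted p were 0.0869, 0.0905 and 0.0682.

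A few members of the same list went up in hβ3 cells. Fosl1, which encodes the AP-1 component FRA1, had 88.8, 80.4 and 84.2 CPM in hβ3 cultures, against 42.7, 22.5 and 44.8 CPM in Δβ3 cultures (log2 1.20 ± 0.21, adjusted p = 0.00152). Plk2, a polo-like kinase that is induced by stress and by growth factors (chromosome 13, 110395046 to 110400844, plus strand), had 134.8, 137.5 and 139.4 CPM in hβ3 cultures, against 58.7, 61.5 and 57.5 CPM in Δβ3 cultures (log2 1.21 ± 0.11, adjusted p = 1.38e-06). Neither gene had overlapping groups, and for Plk2 the 3 Δβ3 cultures, culture 2 included, were nearly equal.

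The EGF receptor family list held the ligand Tgfa and others that did not follow it. Of 13 tested, 5 were higher and 2 lower with 18 libraries (of all genes, 4.38% and 5.69%) and 5 and 3 without culture 2. Leaving out hβ3 cultures 1, 2 or 3 gave 3 and 1, 2 and 0, and 3 and 1. Hbegf, which encodes heparin-binding EGF-like growth factor, had 122.9, 132.7 and 127.0 CPM in hβ3 cultures, against 89.0, 60.1 and 83.5 CPM in Δβ3 cultures (log2 0.72 ± 0.14, adjusted p = 0.00341). Nrg1, a ligand of ERBB3 and ERBB4, was near the limit of detection, with 33 counts over the 3 hβ3 cultures, against 1 count over the 3 Δβ3 cultures. It was called with 18 libraries (adjusted p = 0.0141) but not without hβ3 culture 1 or 2 (adjusted p up to 0.0559). Betacellulin (Btc) had 0.875, 0.285 and 0.505 CPM in hβ3 cultures, against 6.73, 0.466 and 4.39 CPM in Δβ3 cultures (log2 -2.82, adjusted p = 0.00708), so the groups overlapped at culture 2, and the call was lost without hβ3 culture 2 (adjusted p = 0.0548). Areg (amphiregulin) and Ereg (epiregulin), both ligand genes on chromosome 5, were lower in hβ3 cells only without culture 2, by -0.92 (adjusted p = 0.00106) and -0.78 (adjusted p = 0.0416). Among the receptors, Erbb2 differed by 0.40 ± 0.11 (adjusted p = 0.028), lost on leaving out any 1 hβ3 culture or Δβ3 culture 3 (adjusted p up to 0.0958).

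Genes driven by serum response factor and YAP, which respond to actin assembly, were called in 1 direction. Of 25 tested, 5 were higher and 0 lower with 18 libraries (of all genes, 4.38% and 5.69%), and 9 and 0 without culture 2. For the lower direction edgeR gave 3 and 0 at an unadjusted p under 0.05, and DESeq2 called 0 in both fits. The 18-library fit called 4 lower without Δβ3 culture 1 and 3 without Δβ3 culture 3, which leaves culture 2 as 1 of 2 Δβ3 libraries. The median was -0.05 with 18 libraries and 0.52 with 17. Cnn2, the actin-binding protein calponin-2, had 539.7, 557.4 and 525.9 CPM in hβ3 cultures, against 167.7, 234.3 and 165.2 CPM in Δβ3 cultures (log2 1.52 ± 0.14, adjusted p = 1.41e-06). Ajuba, a LIM protein at junctions, had 84.1, 99.8 and 93.2 CPM in hβ3 cultures, against 38.7, 42.7 and 34.1 CPM in Δβ3 cultures (log2 1.26 ± 0.22). Amotl2 and Actb (β-actin) differed by 1.86 ± 0.35 and 0.83 ± 0.14. For Ankrd1 and Ctgf, which are standard YAP targets, the sign and the call depended on culture 2. Ankrd1, which heart muscle also expresses strongly, had 382.8, 439.4 and 390.5 CPM in hβ3 cultures, against 41.9, 1506 and 45.7 CPM in Δβ3 cultures. The groups overlapped through culture 2, and the difference was -0.39 (adjusted p = 0.83) with it and 3.21 (adjusted p = 7.38e-05) without it. Ctgf had 21.0, 23.3 and 21.8 CPM in hβ3 cultures, against 2.93, 107.4 and 2.24 CPM in Δβ3 cultures, -0.75 (adjusted p = 0.705) with culture 2 and 3.07 (adjusted p = 0.0194) without it. Cyr61, a secreted CCN protein, differed by 0.75 (adjusted p = 0.0362) and 1.20 (adjusted p = 1.22e-06), and its 18-library call was lost on leaving out any other 1 of the 6 libraries (adjusted p up to 0.113).

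The WNT list, which includes Wnt7a, held 2 higher and 2 lower of 17 with 18 libraries (of all genes, 4.38% and 5.69%). The counts were 2 and 4 without culture 2. Apcdd1, a membrane inhibitor of WNT signalling, had 189.9, 186.9 and 185.6 CPM in hβ3 cultures, against 130.4, 133.2 and 126.6 CPM in Δβ3 cultures (log2 0.53 ± 0.10, adjusted p = 0.00258). The receptors Fzd1 and Fzd7 differed by -0.61 ± 0.17 and -0.69 ± 0.17, calls that were lost without hβ3 culture 1 or 2 (adjusted p up to 0.105). For Fzd1 they were also lost without hβ3 culture 3 or Δβ3 culture 1. Of 21 tested G protein signalling genes, 3 were higher and 4 lower with 18 libraries, and 3 and 3 of 22 without culture 2. Rgs2, which speeds up the GTPase step of Gq, had 23.8, 19.5 and 24.2 CPM in hβ3 cultures, against 49.8, 53.9 and 48.7 CPM in Δβ3 cultures (log2 -1.18 ± 0.15, adjusted p = 6.98e-05). The retinoic acid-induced orphan receptor Gprc5a differed by 1.24 ± 0.17 and the γ subunit Gng11 by -1.42 ± 0.24.

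Of 19 tested inflammatory factors, 2 were higher and 2 lower with 18 libraries (of all genes, 4.38% and 5.69%). The counts were 4 and 2 without culture 2. Ptgs2, which encodes the prostaglandin synthase COX-2, had 692.4, 688.5 and 663.4 CPM in hβ3 cultures, against 273.1, 216.6 and 288.3 CPM in Δβ3 cultures (log2 1.39 ± 0.19, adjusted p = 0.000132). Csf1, the macrophage growth factor, had 12.4, 11.3 and 9.16 CPM in hβ3 cultures, against 3.18, 2.80 and 2.87 CPM in Δβ3 cultures (log2 1.89 ± 0.27, adjusted p = 0.000229). Cx3cl1, the membrane chemokine fractalkine, had 18.3, 16.6 and 17.2 CPM in hβ3 cultures, against 48.8, 37.8 and 47.2 CPM in Δβ3 cultures (log2 -1.36 ± 0.19, adjusted p = 0.00017). In each of the 3 the groups were well apart. Il1rn, the interleukin-1 receptor antagonist, differed by -1.68 (adjusted p = 0.0319) with overlapping groups, and its call was lost without hβ3 culture 1 or 3 or Δβ3 culture 1 (adjusted p up to 0.156). Cxcl12, a chemokine that stromal cells make, turned with culture 2, which had 178.1 CPM against 9.91 and 11.4 CPM in the other Δβ3 cultures. It differed by -0.56 (adjusted p = 0.684) with that library and by 2.08 (adjusted p = 1.9e-05) without it. Of 11 tested S100 genes, 3 were higher (S100a3, S100a7a, S100a11) and 1 lower (S100b) in both fits. S100a11 had 241.3, 191.1 and 233.7 CPM in hβ3 cultures, against 81.5, 75.1 and 89.6 CPM in Δβ3 cultures (log2 1.44 ± 0.29, adjusted p = 0.00494).

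Interferon-stimulated genes are induced downstream of the interferon receptors and encode antiviral effectors, and every called member was lower in hβ3 cells than in Δβ3 cells. Of 32 tested, 0 were higher and 13 lower with 18 libraries (5.69% of all genes were lower), and 0 and 18 of 33 without culture 2 (5.88%). At an unadjusted p under 0.05, edgeR gave 0 higher in both fits, and DESeq2 called 0 higher in both and 14 and 19 lower. The medians were -0.96 and -1.20, and leaving out 1 library gave 9 to 18 lower with 18 libraries and 15 to 17 with 17. Usp18, a protease that removes ISG15 and dampens interferon receptor signalling (chromosome 6, 121245906 to 121270917, plus strand), had 14.9, 18.3 and 20.8 CPM in hβ3 cultures, against 76.3, 29.7 and 67.9 CPM in Δβ3 cultures (log2 -1.69 ± 0.29, adjusted p = 0.000965, and -2.0 without culture 2). Ifi44 had 1.82, 0.998 and 3.87 CPM in hβ3 cultures, against 19.4, 14.5 and 17.7 CPM in Δβ3 cultures (log2 -2.95 ± 0.37, adjusted p = 5.34e-05). In both genes the groups did not overlap, and culture 2 was the lowest of the Δβ3 cultures.

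The starts of 3 of these genes are shown because they hold the letters TTTC, any 2 bases and TTTC again, the core of the interferon-stimulated response element bound by IRF factors. Capitals mark each match on either strand, and overlapping matches run together. The sequences are RefSeq promoters of build GRCm38.p6, 250 bases before to 50 after the start, written on the strand of the gene, at chr4:156200769-156201068 (minus) for Isg15, chr19:34583279-34583578 (plus) for Ifit3 and chr3:142620413-142620712 (plus) for Gbp2.
Isg15: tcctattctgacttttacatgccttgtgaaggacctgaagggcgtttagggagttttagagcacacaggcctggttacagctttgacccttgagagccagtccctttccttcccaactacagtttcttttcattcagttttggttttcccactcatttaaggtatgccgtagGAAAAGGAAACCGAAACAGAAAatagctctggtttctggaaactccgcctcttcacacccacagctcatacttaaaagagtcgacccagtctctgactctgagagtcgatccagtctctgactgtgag
Ifit3: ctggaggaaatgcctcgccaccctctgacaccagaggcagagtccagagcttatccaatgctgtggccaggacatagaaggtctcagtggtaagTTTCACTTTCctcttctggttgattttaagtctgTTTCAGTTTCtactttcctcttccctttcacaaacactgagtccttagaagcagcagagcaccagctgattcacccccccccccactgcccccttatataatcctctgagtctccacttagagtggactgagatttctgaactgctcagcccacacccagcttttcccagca
Gbp2: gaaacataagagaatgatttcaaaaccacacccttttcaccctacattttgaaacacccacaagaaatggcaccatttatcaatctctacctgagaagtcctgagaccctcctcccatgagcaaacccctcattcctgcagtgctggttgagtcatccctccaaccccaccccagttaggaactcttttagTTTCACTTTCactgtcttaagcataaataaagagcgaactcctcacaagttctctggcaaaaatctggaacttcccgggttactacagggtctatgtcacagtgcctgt
Isg15, a ubiquitin-like modifier, had 11.5, 13.4 and 17.2 CPM in hβ3 cultures, against 41.2, 17.4 and 36.7 CPM in Δβ3 cultures (log2 -1.18 ± 0.31, adjusted p = 0.0239, and -1.47 without culture 2). Culture 2 was level with the highest hβ3 culture, and the 18-library call was lost without hβ3 culture 1 or 2 or Δβ3 culture 1 (adjusted p up to 0.125). Ifit3, which binds viral RNA with other IFIT proteins, had 15.9, 21.95 and 26.0 CPM in hβ3 cultures, against 69.7, 30.5 and 58.6 CPM in Δβ3 cultures (log2 -1.32 ± 0.26, adjusted p = 0.00339). Gbp2, a guanylate-binding protein, had 59.2, 63.6 and 72.8 CPM in hβ3 cultures, against 178.4, 85.3 and 160.8 CPM in Δβ3 cultures (log2 -1.12 ± 0.20, adjusted p = 0.0013). The motif, read on both strands, stood in 14 of the 23 tested members with a listed promoter. These were 4 of 6 called in both fits and 10 of 17 others. A member counted if any of its promoters held the motif. The share of single promoters of that length with it was 3.44% of all 32851, which is an unlike unit. Among 13 tested class I antigen presentation genes, which interferons also raise, 0 were higher and 3 lower with 18 libraries. Without culture 2 the counts were 0 and 1. Of all genes, 5.69% and 5.88% were lower in the 2 fits. The list median was -0.73 with 18 libraries and -0.13 without culture 2. At an unadjusted p under 0.05 or by DESeq2, 0 were higher in either fit. The one lower in both, H2-T23, differed by -1.16 (adjusted p = 0.0119) and -0.74 (adjusted p = 0.0341), and its call was lost without hβ3 culture 1 or 3 (adjusted p up to 0.0611).

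**Figure D3:**
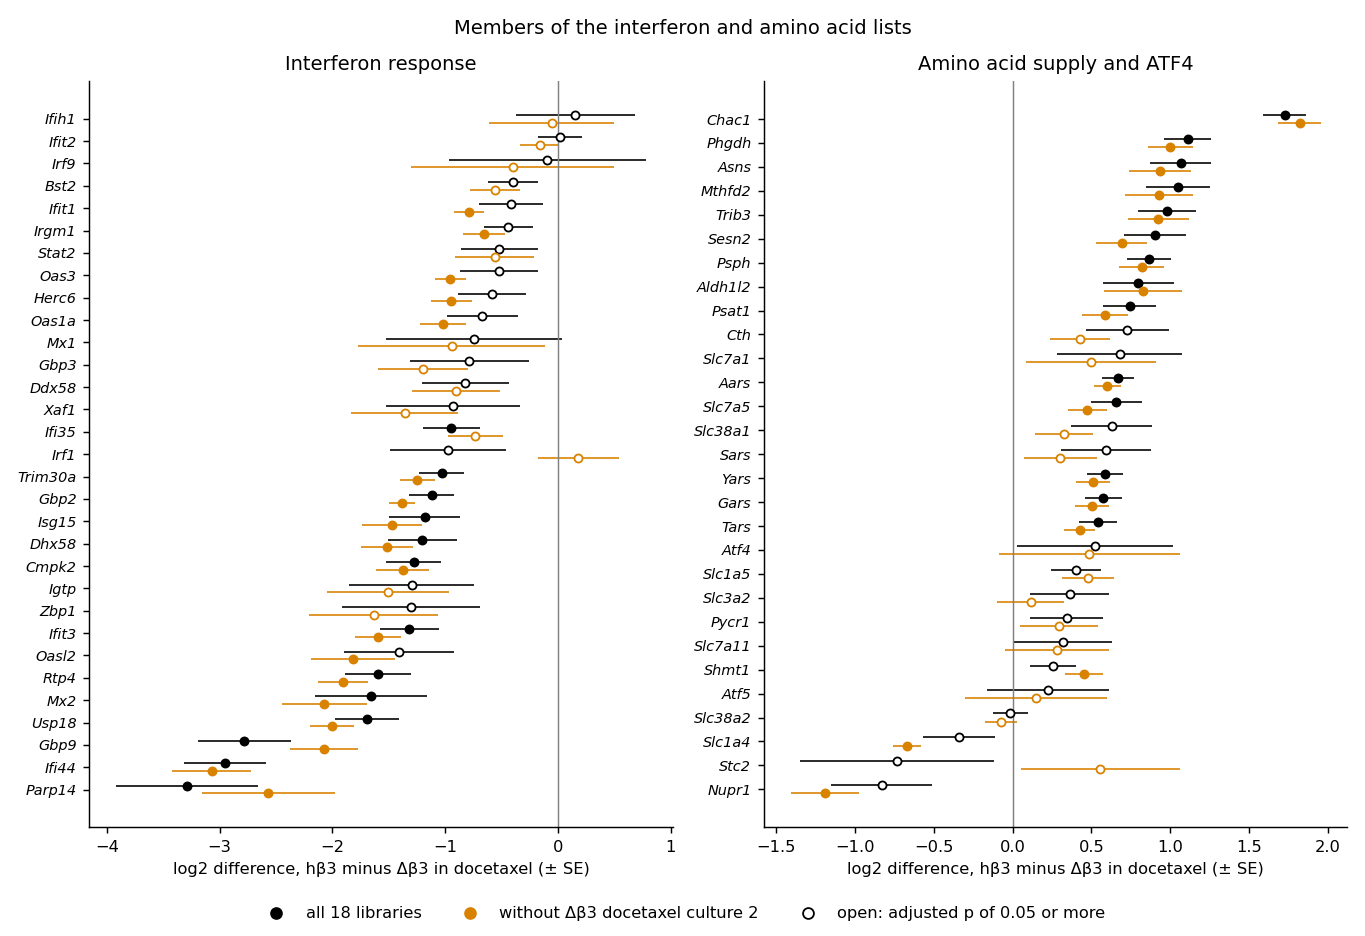
Log2 difference, hβ3 minus Δβ3 in docetaxel, with its standard error for tested members of the interferon list (left) and the amino acid and ATF4 list (right). Black is the fit of 18 libraries, orange the fit without Δβ3 culture 2, and open points did not pass an adjusted p under 0.05. Every called interferon gene lies left of 0, and the called amino acid genes lie right of 0 except Slc1a4 and Nupr1 in the 17-library fit.

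The amino acid and ATF4 list moved the other way. ATF4 is the transcription factor of the integrated stress response, and its targets take up and make amino acids and charge transfer RNAs. Of 29 tested genes, 14 were higher and 0 lower with 18 libraries (4.38% of all genes were higher), and 15 and 2 of 30 without culture 2 (4.53%). With 18 libraries, 1 member was lower at an unadjusted p under 0.05, and DESeq2 called 15 higher and 1 lower. The medians were 0.59 and 0.48. Leaving out 1 library gave 11 to 16 higher with 18 libraries. Without culture 2, the count fell to 7 on also leaving out Δβ3 culture 1 and to 4 on also leaving out Δβ3 culture 3. Both leave 1 Δβ3 docetaxel culture, which is assumed to vary like the other groups.

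Promoters of 3 members are shown because they hold TGATGNAA, where N is any base, the core of the C/EBP-ATF response element that ATF4 binds. Capitals again mark each match on either strand, on the strand of the gene, at chr6:7693160-7693459 (minus) for Asns, chr2:119350992-119351291 (plus) for Chac1 and chr2:152344011-152344310 (minus) for Trib3.
Asns: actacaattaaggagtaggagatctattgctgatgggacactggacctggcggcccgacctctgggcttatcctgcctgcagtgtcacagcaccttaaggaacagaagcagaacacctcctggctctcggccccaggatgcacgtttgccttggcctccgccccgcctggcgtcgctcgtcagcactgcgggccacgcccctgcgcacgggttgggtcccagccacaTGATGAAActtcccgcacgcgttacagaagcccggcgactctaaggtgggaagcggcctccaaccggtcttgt
Chac1: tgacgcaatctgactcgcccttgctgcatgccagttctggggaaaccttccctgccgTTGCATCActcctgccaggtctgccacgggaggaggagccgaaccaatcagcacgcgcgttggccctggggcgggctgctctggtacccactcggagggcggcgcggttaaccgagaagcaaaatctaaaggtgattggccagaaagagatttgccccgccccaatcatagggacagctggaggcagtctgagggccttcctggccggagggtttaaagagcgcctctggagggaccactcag
Trib3: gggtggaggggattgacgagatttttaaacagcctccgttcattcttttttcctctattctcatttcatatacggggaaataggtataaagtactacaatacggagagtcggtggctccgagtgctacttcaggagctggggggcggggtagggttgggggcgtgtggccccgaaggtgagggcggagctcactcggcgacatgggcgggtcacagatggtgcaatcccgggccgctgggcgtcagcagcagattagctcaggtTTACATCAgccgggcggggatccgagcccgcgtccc
Chac1, which degrades glutathione, had 42.6, 49.0 and 52.2 CPM in hβ3 cultures, against 14.2, 16.5 and 12.9 CPM in Δβ3 cultures (log2 1.73 ± 0.14, adjusted p = 5.24e-07). Asns, asparagine synthetase, had 319.9, 328.5 and 296.8 CPM in hβ3 cultures, against 162.2, 121.7 and 166.9 CPM in Δβ3 cultures (log2 1.07 ± 0.19, adjusted p = 0.00181). Trib3, a pseudokinase that feeds back on ATF4, had 23.98, 24.01 and 22.03 CPM in hβ3 cultures, against 13.1, 10.9 and 11.5 CPM in Δβ3 cultures (log2 0.98 ± 0.18, adjusted p = 0.00238). In each of them the 3 Δβ3 cultures lay below all hβ3 cultures, with culture 2 beside the others of its group. The motif stood in 11 of the 24 tested members with a listed promoter. These were 7 of 12 called in both fits and 4 of 12 others. A member again counted if any of its promoters held the motif, whereas 3.97% of all single promoters held it.

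The serine pathway moved with them. Phgdh, the first enzyme of serine synthesis, had 392.5, 436.5 and 399.4 CPM in hβ3 cultures, against 214.3, 159.4 and 194.8 CPM in Δβ3 cultures (log2 1.11 ± 0.15, adjusted p = 0.000122). Psat1 and Psph, the following enzymes, differed by 0.74 ± 0.17 (adjusted p = 0.0086) and 0.87 ± 0.14 (adjusted p = 0.000588), and Mthfd2 of the mitochondrial folate cycle by 1.05 ± 0.20 (adjusted p = 0.00307). Aars, the cytosolic alanyl-tRNA synthetase, differed by 0.67 ± 0.10 (adjusted p = 0.000322). Atf4 itself had few counts, at 1.75, 3.06 and 2.27 CPM in hβ3 cultures, against 1.75, 1.55 and 1.61 CPM in Δβ3 cultures, and did not pass (0.52 ± 0.50, adjusted p = 0.521).

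Docetaxel binds β-tubulin in microtubules. Of 23 tubulins and microtubule-associated genes, 3 were higher and 0 lower with 18 libraries (of all genes, 4.38% and 5.69%). The counts were 2 and 1 without culture 2. With 18 libraries, 3 were lower at an unadjusted p under 0.05 and 0 by DESeq2. Tubb3, the class III β-tubulin discussed in taxane resistance, had 188.0, 208.4 and 190.1 CPM in hβ3 cultures, against 128.9, 79.6 and 118.7 CPM in Δβ3 cultures (log2 0.84 ± 0.15, adjusted p = 0.00135, and 0.66 without culture 2). Tubb6 differed by 0.72 (adjusted p = 0.0278) and 0.48 (adjusted p = 0.0373), with its call lost on leaving out any 1 hβ3 culture (adjusted p up to 0.128). Of 10 drug efflux transporters, 1 was higher and 2 were lower in both fits. The drug pump genes Abcb1a (-3.73 ± 1.21, adjusted p = 0.0662, with culture 2 at 27.5 CPM against 1.81 and 0.627 in the other Δβ3 cultures, and -0.77 without it) and Abcb1b (0.42 ± 0.41, adjusted p = 0.526) did not pass. Abcc1 had 357.0, 359.8 and 352.2 CPM in hβ3 cultures, against 264.6, 207.8 and 259.6 CPM in Δβ3 cultures (log2 0.55 ± 0.11, adjusted p = 0.00396). Abca1, a cholesterol exporter, had 59.8, 54.4 and 61.8 CPM in hβ3 cultures, against 183.9, 199.2 and 157.8 CPM in Δβ3 cultures (log2 -1.62 ± 0.14, adjusted p = 9.87e-07), and Abcg2 differed by -1.72 ± 0.34 (adjusted p = 0.00333).

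Of 29 p53 target genes, 4 were higher and 1 lower with 18 libraries (of all genes, 4.38% and 5.69%). The counts were 8 and 1 without culture 2. Pmaip1, which encodes the BH3-only death protein NOXA, had 31.9, 35.3 and 29.9 CPM in hβ3 cultures, against 9.29, 7.46 and 7.80 CPM in Δβ3 cultures (log2 1.98 ± 0.17, adjusted p = 1.16e-06). Every hβ3 culture stood clear of the Δβ3 cultures, which lay close together. Pmaip1 was also the only called member of 13 tested BCL2 family genes in both fits. Sesn2, a stress-induced inhibitor of mTORC1, differed by 0.90 ± 0.20 (adjusted p = 0.00708) and is a member of the ATF4 list too. Cdkn1a, the p21 cell cycle inhibitor, did not pass (0.58 ± 0.34, adjusted p = 0.261). Of 14 death receptor genes, 0 were higher and 2 lower with 18 libraries, with 1 higher at an unadjusted p under 0.05 and 0 by DESeq2, and 0 and 3 without culture 2. Dapk1, a death-associated kinase, had 2.62, 3.06 and 1.93 CPM in hβ3 cultures, against 8.11, 4.97 and 8.61 CPM in Δβ3 cultures (log2 -1.51 ± 0.26, adjusted p = 0.0013).

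Of 30 tested DNA replication genes, 4 were higher and 0 lower with 18 libraries (of all genes, 4.38% and 5.69%). The counts were 3 and 0 without culture 2. At an unadjusted p under 0.05, 0 were lower in both fits, and DESeq2 called 0 lower. Rrm2, a ribonucleotide reductase subunit, had 421.2, 436.3 and 383.9 CPM in hβ3 cultures, against 251.5, 154.5 and 241.3 CPM in Δβ3 cultures (log2 0.94 ± 0.15, adjusted p = 0.000761). Mcm2 and Mcm3, which encode parts of the MCM helicase ring, differed by 0.67 ± 0.11 (adjusted p = 0.000983) and 0.63 ± 0.14 (adjusted p = 0.00722). Of 31 tested G2/M and mitosis genes edgeR called 0 in either fit, with 3 higher at an unadjusted p under 0.05 with 18 libraries and 1 lower with 17, and DESeq2 also called 0. Mki67, the proliferation marker, had 1093, 850.4 and 1001 CPM in hβ3 cultures, against 803.2, 476.0 and 803.1 CPM in Δβ3 cultures (log2 0.50 ± 0.21, adjusted p = 0.115). In bulk RNA, fewer cells of a cell cycle phase and less RNA per cell cannot be told apart.

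Of 19 NRF2 target genes, 1 was higher and 1 lower in both fits, near the shares of all genes (4.38% and 5.69% with 18 libraries). Hmox1, heme oxygenase-1, had 143.0, 150.1 and 141.8 CPM in hβ3 cultures, against 42.8, 49.3 and 43.7 CPM in Δβ3 cultures (log2 1.68 ± 0.14, adjusted p = 7.93e-07), so the cultures of each group were nearly equal. Gstm1, a glutathione transferase, differed by -1.52 (adjusted p = 0.0168) and by -0.57 (adjusted p = 0.0144) without culture 2, and its call was lost on leaving out any 1 hβ3 culture (adjusted p up to 0.0796). Of 26 glycolysis and hypoxia genes, 2 were higher and 2 lower with 18 libraries, and 2 and 3 with 17. The enzymes Pgam1 and Pgk1 differed by 0.87 ± 0.15 (adjusted p = 0.00112) and 0.60 ± 0.12 (adjusted p = 0.00331). Of 6 tested keratins, 1 was higher and 1 lower with 18 libraries, and 1 and 3 with 17. Krt15, a basal keratin, had 2.62, 2.64 and 3.28 CPM in hβ3 cultures, against 30.7, 10.4 and 31.8 CPM in Δβ3 cultures (log2 -3.10 ± 0.36, adjusted p = 3.06e-05).

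Of 12 epithelial-mesenchymal transition markers, 1 was higher and 2 lower with 18 libraries (of all genes, 4.38% and 5.69%). The counts were 2 and 2 with 17. The transcription factor Snai2 differed by 1.30 (adjusted p = 0.0147), lost without hβ3 culture 1 (adjusted p = 0.0689), and Foxc2 by -0.86 (adjusted p = 0.0172), lost on leaving out any 1 hβ3 culture (adjusted p up to 0.0838). Of 23 lysosome genes, 0 were higher and 2 lower with 18 libraries, with 1 higher at an unadjusted p under 0.05 and 0 by DESeq2, and 0 and 4 with 17. The protease gene Ctsb differed by -0.69 (adjusted p = 0.0159) and -0.92 (adjusted p = 1.38e-06), with the first call lost on leaving out any 1 hβ3 culture (adjusted p up to 0.0773). Of 36 ribosomal protein genes, 4 were higher and 0 lower with 18 libraries, and 2 and 0 with 17. The log2 difference was positive in all 36 with 18 libraries and in 35 with 17. The list medians were 0.47 and 0.33, against -0.07 and 0.01 over all tested genes. At an unadjusted p under 0.05, edgeR gave 18 higher with 18 libraries and 7 with 17. None of the 36 was lower at an unadjusted p under 0.05 or by DESeq2. The higher calls with 18 libraries, Rpl4 and Rps2 among them, were lost on leaving out any 1 hβ3 culture, with adjusted p up to 0.0943 and 0.141 for these genes. Of 28 sterol and fatty acid genes edgeR called 0 in either fit, with 5 higher and 1 lower at an unadjusted p under 0.05 with 18 libraries, where DESeq2 called 2 higher, and 4 and 3 with 17, where DESeq2 called 1 lower.

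The empty vector line in docetaxel gives another point for the named genes. These contrasts share their hβ3 or Δβ3 libraries with the comparison above, so their values are only set side by side. Inhbb had 253.0, 241.3 and 233.0 CPM in pMx cultures, and the log2 difference from pMx was -4.51 (adjusted p = 9.24e-08) in hβ3 cells and -0.09 (adjusted p = 0.923) in Δβ3 cells. Wnt7a had 1.06, 0.28 and 0.375 CPM in pMx cultures, with 7.17 (adjusted p = 0.00248) in hβ3 cells and 3.04 (adjusted p = 0.347) in Δβ3 cells, or -0.23 in Δβ3 cells without culture 2. The pMx level was close to Δβ3 cultures 1 and 3 in both. Chac1 differed from pMx by 1.85 (adjusted p = 2.06e-07) in hβ3 cells and by 0.13 (adjusted p = 0.732) in Δβ3 cells. Usp18 differed from pMx by -2.0 (adjusted p = 0.000213) in hβ3 cells and by -0.31 (adjusted p = 0.675) in Δβ3 cells. Fos and Egr1 had a middle level in pMx. Fos had 4.02, 3.55 and 3.42 CPM in pMx cultures, with -1.16 (adjusted p = 0.0734) in hβ3 cells and 2.34 (adjusted p = 0.0421) in Δβ3 cells. Egr1 had 53.2, 75.5 and 66.3 CPM in pMx cultures, with -1.31 (adjusted p = 0.0479) in hβ3 cells and 1.40 (adjusted p = 0.347) in Δβ3 cells, the second of which was 1.83 (adjusted p = 3.79e-05) without culture 2.

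Most differences were also present without the drug. Of the 873 genes called in both docetaxel fits (7.19% of those tested in both), 860 had the same sign between hβ3 and Δβ3 cells in DMSO, in libraries that this contrast does not share. With 18 libraries, 680 of them were called with that sign in DMSO, where 13.1% of all tested genes were called, and 754 with 17 libraries, where 23% were. In DMSO 6.27% of all genes were higher and 6.86% lower with 18 libraries, and 10.7% and 12.3% with 17. The interferon list had 0 higher and 9 lower of 32 in DMSO with 18 libraries, at a median of -0.73, and 0 and 15 of 33 with 17. The amino acid and ATF4 list had 7 higher and 0 lower of 29 in DMSO with 18 libraries, at 0.37, and 14 and 2 of 30 with 17. The TGFβ list had 2 higher and 8 lower of 17 in DMSO with 18 libraries, and 3 and 9 with 17. DNA replication genes had 0 higher and 0 lower of 30 in DMSO with 18 libraries, at a median of -0.06, and 1 and 3 with 17. Of the 13 genes with the opposite sign in DMSO, Apcdd1 was the only one called there, Mcm3 (-0.02, adjusted p = 0.959), Gadd45a (0.03, adjusted p = 0.953) and Nrg2 (-0.02, adjusted p = 0.955) were near 0, and Rgs2 is given below.

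**Figure D4:**
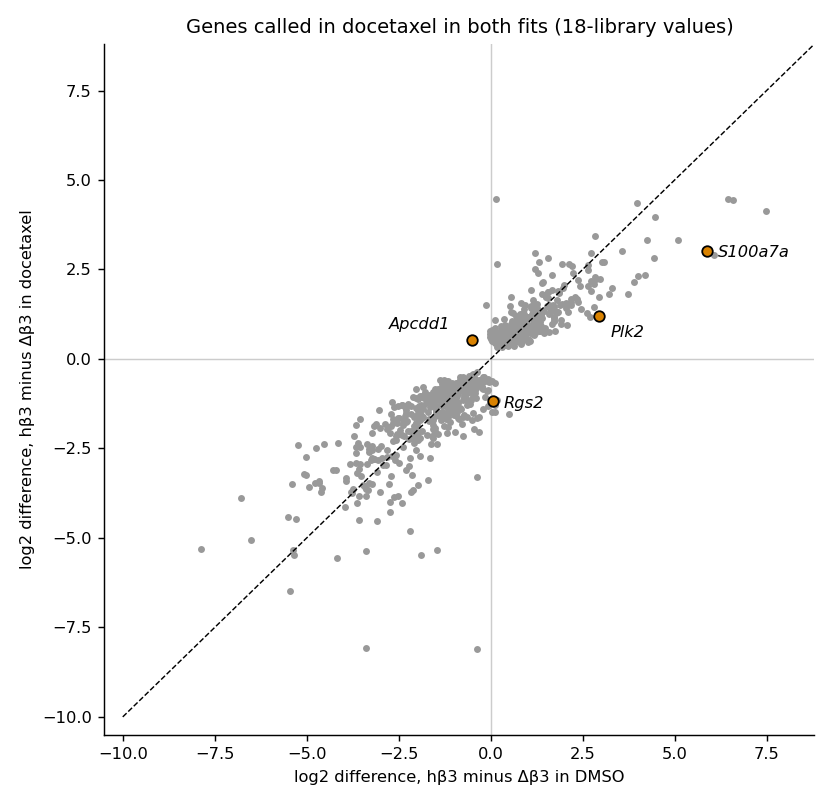
Log2 difference, hβ3 minus Δβ3, in docetaxel (vertical) against DMSO (horizontal) for genes called in docetaxel in both fits, with values of the 18-library fit. The dashed line marks equal differences, and orange points are 4 genes called for a change of the difference. Apcdd1 lies left of 0 in DMSO and above 0 in docetaxel, and Plk2 and S100a7a lie below the dashed line.

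A direct test of whether the hβ3 minus Δβ3 difference changed between docetaxel and DMSO called 5 genes with 18 libraries (0.0412% of those tested, 1047 at an unadjusted p under 0.05) and 9 with 17 (0.0724%, 1104 unadjusted), of which 4 and 8 are described. The negative values below mean a smaller or more negative hβ3 minus Δβ3 difference in docetaxel. Plk2 had in DMSO 192.4, 201.7 and 190.6 CPM in hβ3 cultures, against 22.99, 28.01 and 24.4 CPM in Δβ3 cultures. The gap of 2.95 in DMSO was thus 1.21 in docetaxel, a change of -1.74 ± 0.15 (adjusted p = 2.75e-05) that was called in all 19 alternatives to the 18-library fit, 1 of which leaves out Δβ3 docetaxel culture 2. Both lines moved towards each other, with docetaxel levels of 134.8 to 139.4 CPM in hβ3 cells and 57.5 to 61.5 CPM in Δβ3 cells.

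S100a7a had in DMSO 56.9, 57.2 and 54.2 CPM in hβ3 cultures, against 0.790, 1.16 and 0.865 CPM in Δβ3 cultures. Its change was -2.86 ± 0.48 (adjusted p = 0.0492), called in 5 of the 19 alternatives (adjusted p 3.06e-05 to 0.401) and lost on leaving out any 1 other library of these groups except Δβ3 docetaxel culture 1. Without Δβ3 docetaxel culture 2 it was -2.24 (adjusted p = 0.0113).

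Rgs2 had in DMSO 16.4, 22.01 and 18.2 CPM in hβ3 cultures, against 18.1, 19.2 and 17.04 CPM in Δβ3 cultures, a difference of 0.06 (adjusted p = 0.838) with overlapping groups. In docetaxel the Δβ3 cultures were at 48.7 to 53.9 CPM and the hβ3 cultures at 19.5 to 24.2 CPM. The change was -1.24 ± 0.21 (adjusted p = 0.0492), called in 3 of the 19 alternatives (adjusted p 1.72e-05 to 0.571) and lost on leaving out any 1 other library of the 4 groups. Without Δβ3 docetaxel culture 2 it was -1.19 (adjusted p = 0.0282). Apcdd1 had in DMSO 152.9, 173.0 and 168.5 CPM in hβ3 cultures, against 255.6, 229.1 and 214.5 CPM in Δβ3 cultures. The order of the lines was thus the reverse of that in docetaxel, a change of 1.03 ± 0.14 (adjusted p = 0.00897) called in 16 of the 19 alternatives (adjusted p 2.56e-10 to 0.401) and lost without hβ3 culture 1 of either treatment (0.0529 and 0.0605). The pMx line is not in this contrast, although its libraries are in the fit through the filter, the scaling and the spread. With only the groups compared, which leaves pMx out, the adjusted p were 0.571 for Rgs2, 0.401 for Apcdd1 and 0.0033 for Plk2. The pMx line had means of 43.5 CPM in docetaxel and 16.7 CPM in DMSO for Rgs2, 115.9 and 211.8 CPM for Apcdd1, and 47.0 and 24.0 CPM for Plk2. For all 3 genes its move with the drug had the direction of the Δβ3 line.

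Without culture 2, 4 more genes were called for this change. Pmaip1 (NOXA) had in DMSO 20.6, 20.8 and 21.1 CPM in hβ3 cultures, against 1.88, 2.25 and 2.16 CPM in Δβ3 cultures, and its change was -1.39 (adjusted p = 0.0282, against 0.0739 with all 18 libraries). Itga2, the collagen-binding α2 subunit, changed by -1.53, the adenylate kinase gene Ak5 by 1.05 and the hypoxia- and stress-induced Ndrg1 by -1.04. The adjusted p with all 18 libraries were 0.579, 0.551 and 0.134. These calls were often lost under the 18 alternatives of the 17-library fit, being made in 6 for Pmaip1 (adjusted p up to 0.291), 7 for Itga2 (up to 0.359), 13 for Ak5 (up to 0.201) and 8 for Ndrg1 (up to 0.286).

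**Figure D5:**
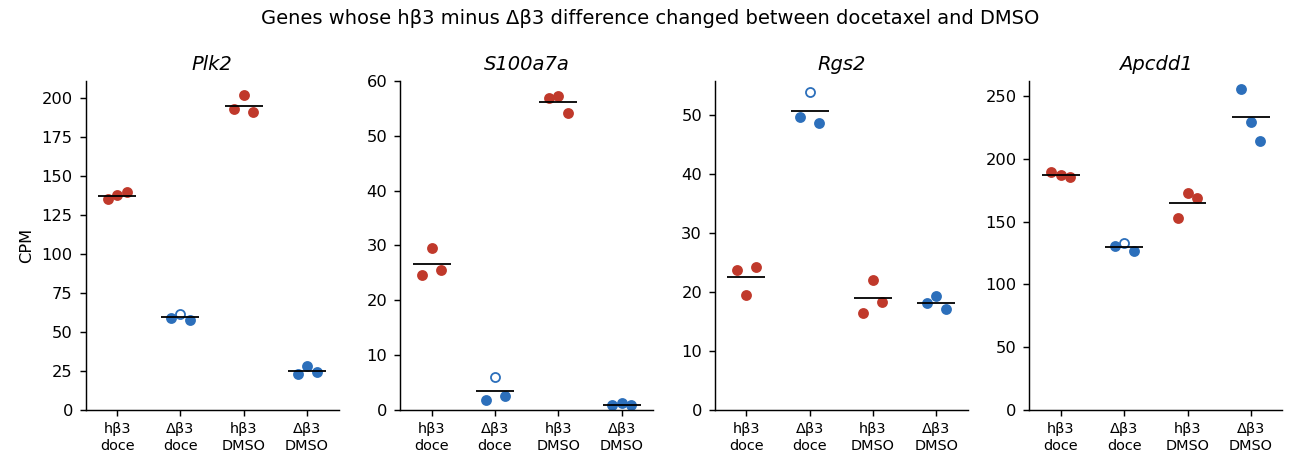
CPM of 4 genes called for a change of the hβ3 minus Δβ3 difference, for hβ3 and Δβ3 cells in docetaxel and for hβ3 and Δβ3 cells in DMSO, from left to right in each panel. Points are cultures (open: Δβ3 docetaxel culture 2) and black lines are means of 3. For Plk2 the docetaxel groups lie between the DMSO groups, and for Rgs2 the Δβ3 docetaxel group stands alone at 48.7 to 53.9 CPM.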

How the data were processed

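RNA was sequenced from 18 cultures in 6 groups of 3, after removal of ribosomal RNA, with random hexamer priming, 13 PCR cycles and single 50-base reads, per the labels' protocols. The authors deposited raw counts of reads over 63759 transcript models. They were made with HISAT2 and featureCounts on mm10 after FastQC, per the submitters' processing notes. No version, annotation or strand setting is stated, nor how reads shared by models were treated, so a gene with few counts is not shown to be silent, and genes that overlap or have antisense partners are uncertain. A deposited column of other values, model lengths in bases, was not used.

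Counts were summed by symbol (32699 symbols, 13170 with several models). Coordinates come from matching symbols to the GENCODE annotation of mm10, for 10313 of the 12145 tested genes. Tests used edgeR 4.0.16 in R 4.3.3: filterByExpr with the 6 groups, TMM scaling and the robust quasi-likelihood F-test, two-sided, with 1 coefficient per group over 18 libraries, and again over 17. Calls required an adjusted p (Benjamini-Hochberg, all tested genes) under 0.05. SE is the size of the log2 difference divided by the square root of F. CPM are counts per 1000000 of the TMM-scaled library size of the 18-library fit. The biological coefficient of variation was 36.1% with 18 libraries and 21.7% with 17, and 13.2% without Δβ3 DMSO culture 1 as well. Counting error alone limits values from a few counts. The fits were also run on simulated counts with 1 spread for all libraries and no library with heart RNA. That spread was smaller than in either fit, so the recovery does not carry over to these data. Of genes changed by 1 on the log2 scale, 73.5% were recovered with 18 libraries and 66.7% with 17. Of genes changed by 2, 92.9% and 96.9% were.

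The 3 cultures of a group are labelled biological triplicate, and no 2 cultures agreed within sampling noise. The samples compared, the 29 gene lists, the 8 marker lists and the rule for named genes were chosen with earlier results of these data known. Lists are described by counts and medians, with no set test. The 14 largest differences in each direction were named among genes that were protein coding, called in both fits with 1 sign, at a mean of at least 2 CPM and with ranges that did not overlap. Also named, with none of these limits on level or overlap, were up to 4 members of each list by p among those called in both fits (with none, the member of smallest p), up to 8 genes called for the change between docetaxel and DMSO, and a fixed set. Other genes, such as Asns, Isg15, Ankrd1, Ctgf, Areg and Cxcl12, were named after their values were seen. Alternatives were RLE scaling, DESeq2 1.42.0, other filters on low counts, scaling without Rn45s and heart markers, only the groups compared, a replicate block, and each library left out in turn. A few genes that meet these rules are not reported here and not drawn in figures, but they stay in the fits, lists and counts.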

Additional observations from a re-analysis of the deposited data

Results flagged for a closer look

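A direct test with all 18 libraries called a change in the difference between hβ3 and Δβ3 cells, docetaxel against DMSO, for 5 genes. Of these, 4 are described here. The call was made in all 19 alternative fits for Plk2, but in 16 for Apcdd1, 5 for S100a7a and 3 for Rgs2. The difference changed by -1.74 for Plk2, by 1.03 for Apcdd1, by -1.24 for Rgs2 and by -2.86 for S100a7a, on the log2 scale. Over the alternative fits of all 18 libraries, the sign was the same in each of them for these 4 genes, and the values ran from -1.83 to -1.68 for Plk2, 0.95 to 1.08 for Apcdd1, -1.33 to -1.11 for Rgs2 and -3.18 to -2.24 for S100a7a. For Apcdd1 all 3 hβ3 cultures lay above the Δβ3 cultures in docetaxel and below them in DMSO.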

How the results depend on the processing

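The 873 genes called in both fits kept 1 sign, and 872 of them were also called on leaving out Δβ3 DMSO culture 1 as well. The number of calls in docetaxel was 1223 with 18 libraries. It was 591 to 2656 on leaving out 1 library, 1982 without Δβ3 DMSO culture 1 and 294 with only the groups compared, a fit of 6 libraries. Without Δβ3 docetaxel culture 2 it was 1294, then 646 to 999 on leaving out another library, 2460 without Δβ3 DMSO culture 1 and 3399 with only the groups compared. RLE scaling, DESeq2, the filters and scaling without Rn45s and heart markers stayed within 1.5 times of the main counts. Deviations of same-numbered cultures from their group means had r of 0.261, -0.0588 and -0.281. Culture 2 weighs heavily on the Δβ3 deviations. For hβ3 culture 1, r was 0.261 with both Δβ3 cultures 1 and 3 and -0.281 with culture 2. The check therefore cannot tell whether the numbers pair the cultures. A fit with the replicate number as a block called 979 genes with 18 libraries and 1275 with 17, and 3 and 5 genes for the change between docetaxel and DMSO. That change was called for 5 genes with 18 libraries, 3 with RLE scaling or without Rn45s and heart markers in the scaling, 2 without Δβ3 DMSO culture 1, 1 with only the groups compared, 37 with DESeq2, and 1 to 9 on leaving out 1 library. Without Δβ3 docetaxel culture 2 it was called for 9 genes, 73 without Δβ3 DMSO culture 1 as well, 3 with only the groups compared, 78 with DESeq2, and 3 to 73 on leaving out 1 library. Itgb3 differed by -0.042 without Δβ3 docetaxel culture 2, the lowest value on leaving out 1 library (the highest was 0.61), and by -0.046 without Δβ3 DMSO culture 1 as well. Of 109 named and tested genes, 109 kept their call and sign with RLE scaling, 108 with DESeq2 and with the block, 105 with no filter, and 56 with only the groups compared. The smaller fits hold fewer samples but did not always call fewer genes, and the causes were not tested.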
